A study of Mus musculus with 4 samples.

Results

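The 9 genes described here encode chemokine receptors of migrating lymphocytes, namely Ccr1, Ccr2, Ccr4, Ccr8, Ccr9, Cxcr3, Cxcr4, Cxcr5 and Cxcr6. They were taken by gene symbol, without Ccr3 and Ccr7, from the 22558 genes of the deposited count table, where each symbol had a single row. All 9 were also among the 18324 genes of the normalized table and among the 11711 genes tested, so none was lost to a filter on low values. Group 2 innate lymphoid cells (ILC2s), the lung lymphocytes that answer IL-33 with type 2 cytokines, were FACS-sorted as CD45+ ST2+ CD127+ cells negative for lineage antigens of T cells, B cells, myeloid cells and mast cells. The samples compared were 2 libraries from C57BL/6 (WT) mice and 2 from ICAM-1 KO mice (B6.129S4-Icam1tm1Jcgr/J), which carry a constitutive targeted Icam1 allele in all cells on a C57BL/6 background, so that the allele is not limited to ILC2s. All mice were 6 weeks old and had received 3 intranasal doses of 0.5 µg rmIL-33, lungs were taken on day 4, and each library was a pool of 4 mice, so library and pool are used alike below.

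Icam1 RNA, the target of the knockout, was not lower in pools labelled ICAM-1 KO, with 2579 and 2630 counts in WT against 2812 and 3453 (log2 fold change 0.33, adjusted p = 0.0745 by edgeR). Icam1 lies on chromosome 9 at 21015985 to 21028817 and overlaps Gm47079 on the other strand. A sum over the whole gene does not show which exons were read, so the genotypes rest on the labels, and the phrase "labelled ICAM-1 KO" is used throughout. The libraries held 24796148 to 28782471 counts on genes, and no library stood apart, since log2 normalized counts over the genes tested correlated at 0.979 within each group and at 0.948 to 0.955 between groups (as a description across genes). ILC2 genes were abundant, Gata3 at 12252 to 16261 counts and Il1rl1, the ST2 gene, at 18964 to 23848. Genes typical of lineages outside the sort gate were also counted. Among them were Cd74, typical of antigen-presenting cells, at 17508 to 33942 and the T cell receptor gene Trac at 1779 to 7047. The cells that these counts came from were not determined.

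Chemokine receptors are membrane proteins that couple to inhibitory G proteins and steer leukocytes along gradients of chemokines. Cxcr4 binds Cxcl12 and holds cells in bone marrow and other tissues that make it. Cxcr6 binds Cxcl16, and Ccr8 binds Ccl1 and Ccl8; both are typical of lymphocytes that live in barrier tissues. Ccr4 binds Ccl17 and Ccl22 and marks type 2 lymphocytes, whereas Cxcr3 binds Cxcl9, Cxcl10 and Cxcl11 and marks type 1 cells. Ccr9 binds Ccl25 and directs cells to the gut, Cxcr5 binds Cxcl13 and directs cells to B cell follicles, and Ccr1 and Ccr2 bind inflammatory CC chemokines and are best known on myeloid cells.

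In mm10, 7 of the 9 genes lie on chromosome 9, as does Icam1. Ccr9 (123678439 to 123784330), Cxcr6 (123806475 to 123811760), Ccr1 (123962124 to 123968692) and Ccr2 (124101950 to 124113557) form a cluster of 435 kb. Ccr8 lies at 120092114 to 120094906, Ccr4 at 114490316 to 114504916 and Cxcr5 at 44511787 to 44561877, the last 23.5 Mb from Icam1 and the nearest to it. Cxcr4 lies on chromosome 1 at 128588199 to 128592293 and Cxcr3 on chromosome X at 101731535 to 101734269. Ccr9 overlaps Gm17200 on its own strand, and Ccr9, Cxcr5 and Cxcr6 overlap genes of the other strand, so their counts are less certain. Estimated counts of Ccr2, Ccr9, Cxcr4, Cxcr5 and Cxcr6 were not whole numbers in some or all libraries and are rounded here, so they too carry the uncertainty of the authors' estimate.

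The 250 bases before the RefSeq start (GRCm38.p6) are shown for the 5 receptors that passed the test below, the 3 that fell first and the 2 that rose after them, each 5′ to 3′ on the strand of the gene with CpG dinucleotides in capitals. They lie at chr1:128592300-128592549 for Cxcr4 (minus strand), chr9:123806227-123806476 for Cxcr6 (plus), chr9:120091883-120092132 for Ccr8 (plus), chr9:123766961-123767210 for Ccr9 (plus, a start inside the gene as annotated by GENCODE) and chr9:123968693-123968942 for Ccr1 (minus).
Cxcr4: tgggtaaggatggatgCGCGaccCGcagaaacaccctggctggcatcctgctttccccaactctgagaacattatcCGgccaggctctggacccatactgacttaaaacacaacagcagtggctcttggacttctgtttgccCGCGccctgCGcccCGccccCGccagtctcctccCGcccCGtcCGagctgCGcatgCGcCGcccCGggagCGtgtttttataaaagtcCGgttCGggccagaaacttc
Cxcr6: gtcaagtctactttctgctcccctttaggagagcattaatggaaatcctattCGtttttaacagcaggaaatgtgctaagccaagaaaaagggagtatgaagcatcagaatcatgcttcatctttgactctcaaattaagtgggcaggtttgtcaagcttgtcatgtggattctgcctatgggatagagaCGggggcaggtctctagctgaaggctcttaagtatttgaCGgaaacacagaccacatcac
Ccr8: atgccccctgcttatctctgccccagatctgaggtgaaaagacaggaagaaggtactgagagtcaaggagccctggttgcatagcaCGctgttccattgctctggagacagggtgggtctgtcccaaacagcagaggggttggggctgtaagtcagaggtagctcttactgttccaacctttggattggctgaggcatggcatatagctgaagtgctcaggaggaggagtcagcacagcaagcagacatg
Ccr9: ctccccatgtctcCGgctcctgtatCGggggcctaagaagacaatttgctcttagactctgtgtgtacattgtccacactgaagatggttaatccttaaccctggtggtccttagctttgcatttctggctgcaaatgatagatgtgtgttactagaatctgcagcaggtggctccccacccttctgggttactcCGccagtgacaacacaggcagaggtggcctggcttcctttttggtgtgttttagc
Ccr1: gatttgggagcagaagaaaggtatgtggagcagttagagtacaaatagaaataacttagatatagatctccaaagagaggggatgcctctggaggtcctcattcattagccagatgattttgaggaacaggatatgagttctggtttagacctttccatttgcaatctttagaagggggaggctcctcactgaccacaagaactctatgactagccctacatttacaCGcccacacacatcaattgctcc

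The Cxcr4 promoter held 19 CpG dinucleotides and a GC content of 61.2%, and 19.7% of the 32851 promoters of the same length held at least as many CpG. The promoters of Cxcr6 and Ccr9 held 3 each, and those of Ccr8 and Ccr1 held 1 each, against a median of 6 over all promoters. Cxcr4 was thus the only one of the 8 receptors with a promoter entry that lay above the median, as Ccr2 held 1 and Ccr4 and Cxcr3 held 3. The letters GATA, searched on both strands as GATA and TATC, occurred in each of the 8 promoters and in 53.6% of all promoters. The longer form AGATAA (or TTATCT) occurred in those of Ccr8 and Ccr2 and in 9.99% of all promoters. Such matches describe the sequence and are no evidence of binding.

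Per length of exon, Ccr8 and Cxcr6 were the most highly expressed of the 9 receptors in each of the 4 libraries. In RPKM (counts per kb of exon, scaled to the counts of the library), Ccr8 had levels of 553 and 481 in WT and 399 and 379 in pools labelled ICAM-1 KO. Cxcr6 had levels of 372 and 368 in WT and 272 and 259 in the others. Together they made up 76.8% to 81.9% of the summed level of the 9 receptors, and the ratio of Cxcr6 to Ccr8 stayed between 0.674 and 0.766. The summed level was 1143 and 1105 in WT and 822 and 779 in pools labelled ICAM-1 KO.

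The order of the next receptors differed between the groups. Cxcr4 came next in both WT libraries, at levels of 137 and 175, above Ccr2 at 41.7 and 38.2. In pools labelled ICAM-1 KO, Ccr2 came next at 55.6 and 47.1, above Cxcr4 at 34.9 and 40.5. The ratio of Cxcr4 to Ccr2 was 3.29 and 4.57 in WT and 0.628 and 0.86 in pools labelled ICAM-1 KO. Ccr4, at 24.3 to 29.4, and Ccr1, at 7.49 to 16, followed in every library. Cxcr3 (3.39 to 8.25), Cxcr5 (2.91 to 4.59) and Ccr9 (0.927 to 3.02) were the lowest. The annotated exons of Ccr9 span 10260 bases. With the median length of its coding transcripts, 3004 bases, an alternative chosen after seeing the data, its mean level over the 4 libraries was 6.19 instead of 1.81, above Cxcr3 at 5.12 and Cxcr5 at 4.55, so the order of these 3 is not fixed. With the same change of length, Ccr4 also passed Cxcr4 in both pools labelled ICAM-1 KO (65.7 and 59.5 against 46.6 and 54.1). Ccr2 then had levels of 86.6 and 79.4 in WT and 115 and 97.8 in pools labelled ICAM-1 KO. The ratio of Cxcr4 to Ccr2 and the share of Ccr8 and Cxcr6 given above thus depend on the length used.

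**Figure D1:**
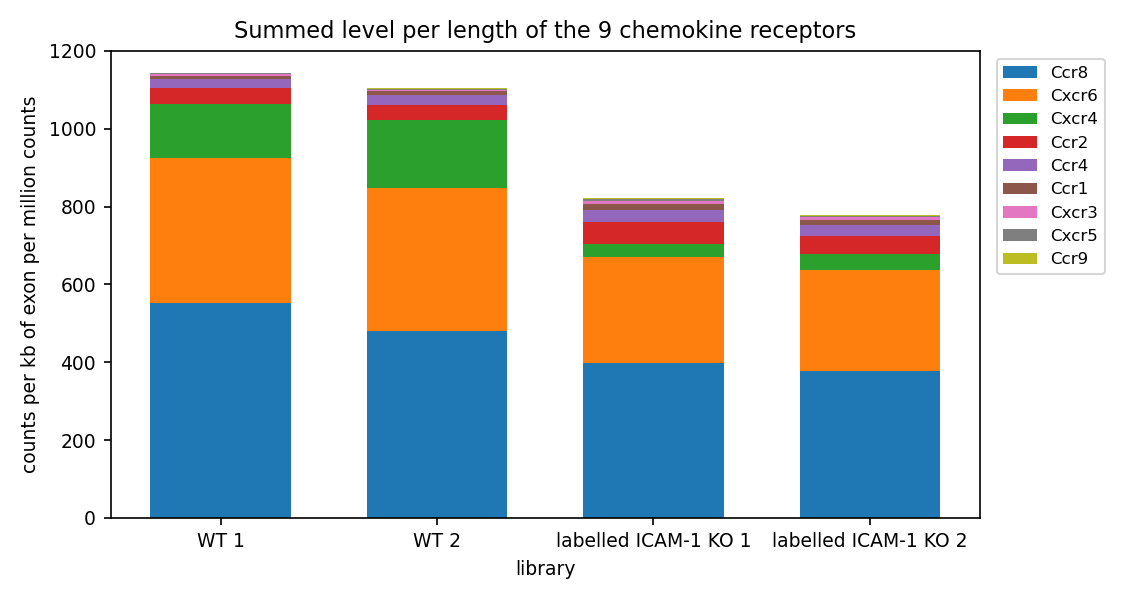
Levels of the 9 chemokine receptors, in RPKM (counts per kb of exon, scaled to the counts of the library), stacked for each of the 4 libraries (no error bars, since each bar is a single library). Ccr8 and Cxcr6 fill most of each bar, and the Cxcr4 segment shrinks from 137 and 175 in WT to 34.9 and 40.5 in pools labelled ICAM-1 KO.

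Cxcr4 fell the most of the 9 receptors in pools labelled ICAM-1 KO, and Cxcr6 and Ccr8 fell by a smaller amount, while Ccr1 and Ccr9 rose. With an adjusted p under 0.05, 3 of the 9 receptors were lower, where 4.97% of the 11711 genes tested were lower by this rule, and 2 were higher, against 8.8% of all genes tested. A change of at least 2-fold as well was reached by Cxcr4 among the lower genes (0.538% of all genes tested) and by Ccr9 among the higher ones (4.94%). The 2 libraries of a label did not overlap with those of the other for 8 receptors, of which 5 lay above WT (28.3% of all genes tested) and 3 below it (31.3%). The median log2 fold change of the 9 was 0.32, against 0.01 for all genes tested. The adjusted p is from edgeR's quasi-likelihood test over all genes tested, and values below are normalized counts, the authors' scale on which each library has the same upper quartile. With pools of mice, p-values measure the spread between pools alone. Since bulk RNA was measured, fewer cells that carry a receptor and less RNA per cell cannot be told apart.

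**Figure D2:**
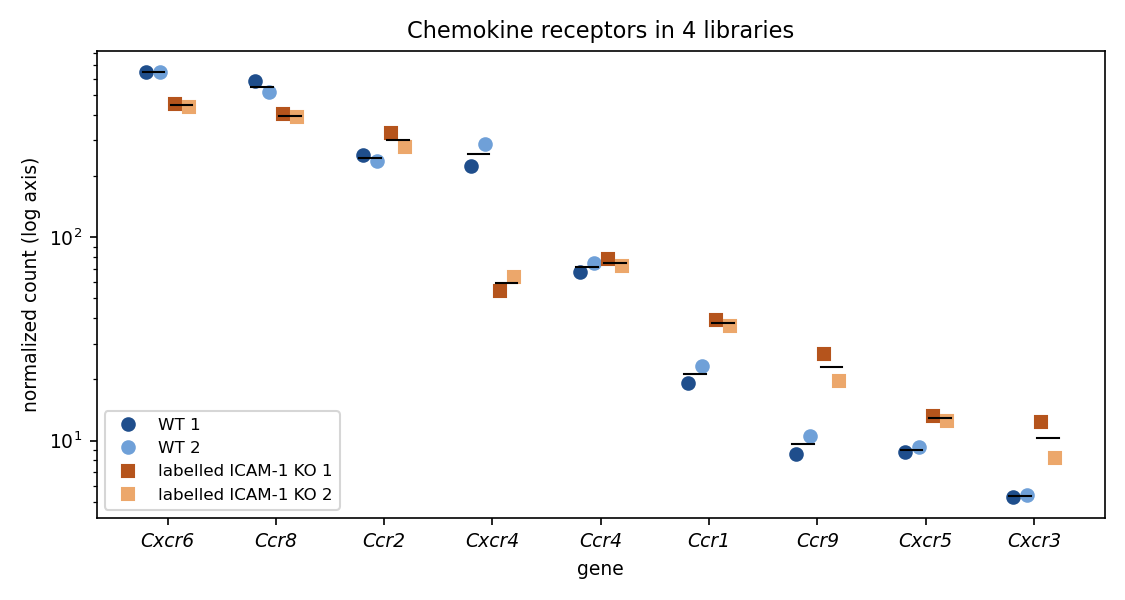
Normalized count (log axis) of each chemokine receptor in the 4 libraries, with circles for WT, squares for pools labelled ICAM-1 KO and short lines for the mean of each pair. The 4 points overlap between groups for Ccr4 alone, and Cxcr4 shows the widest gap, from 223 and 288 down to 54.4 and 64.1.

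Cxcr4, the receptor for Cxcl12, had normalized counts of 223 and 288 in WT and of 54.4 and 64.1 in pools labelled ICAM-1 KO. Both pools labelled ICAM-1 KO thus lay far below both WT libraries, with means of 256 ± 45.4 and 59.2 ± 6.89 (SD, n = 2 libraries each). The log2 fold change was -2.08 (SE, the standard error, 0.143, adjusted p = 0.000136), 4.23-fold lower. It was number 12 of the 11711 genes by p-value and number 23 from the bottom by log2 fold change. The estimated counts behind it were 6768 and 9085 in WT and 1565 and 2011 in the others.

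Cxcr6, a receptor of tissue-resident lymphocytes, had normalized counts of 647 and 648 in WT and of 451 and 438 in pools labelled ICAM-1 KO. The WT libraries were nearly equal, and the gap to the other pair exceeded the spread in either (SDs of 0.906 and 9.49). This was a log2 fold change of -0.52 (SE 0.0784, adjusted p = 0.0047). Ccr8 had 584 and 515 in WT and 403 and 389 in pools labelled ICAM-1 KO, again without overlap. Its log2 fold change was -0.45 (SE 0.09, adjusted p = 0.0147), and without WT replicate 1, the higher of its pair, it was -0.35 with an adjusted p of 0.086. Both falls were well under 2-fold, at 1.43-fold and 1.36-fold.

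Ccr9 was scarce in WT, at normalized counts of 8.58 and 10.6, and reached 26.7 and 19.5 in pools labelled ICAM-1 KO. The latter differed from each other by more than the WT libraries did, but both lay well above them. The log2 fold change of 1.29 (SE 0.24, adjusted p = 0.0109) was the largest rise of the 9. Ccr1 had 19.1 and 23.3 in WT and 39.2 and 36.4 in pools labelled ICAM-1 KO, with a log2 fold change of 0.86 (SE 0.165, adjusted p = 0.0122). Neither call held without WT replicate 1, where the adjusted p was 0.0621 for Ccr9 and 0.0626 for Ccr1, or without a filter on low counts, where it was 0.0541 and 0.0561. In the fit of all libraries with the filter, Cxcr6 was thus called lower and Ccr9 and Ccr1, of the same cluster on chromosome 9, higher.

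Ccr2, Cxcr3 and Cxcr5 were each above WT in both pools labelled ICAM-1 KO but did not pass the test. Ccr2 had 254 and 236 in WT and 323 and 279 in the others (log2 fold change 0.32, 95% interval 0.11 to 0.54, adjusted p = 0.0563). Its adjusted p was under 0.05 in 2 of 8 alternative tests, filters and normalizations, from 0.0194 with DESeq2 to 0.182 without a filter on low counts. With 1 library left out, its log2 fold change was 0.22 to 0.42. Cxcr3 had 5.32 and 5.41 in WT and 12.3 and 8.25 in pools labelled ICAM-1 KO (log2 fold change 0.96, interval 0.26 to 1.66, adjusted p = 0.0719), from 160 and 170 against 354 and 258 counts. For Cxcr3 the adjusted p was under 0.05 in 1 of these 8, from 0.0425 with DESeq2 to 0.154 without a filter on low counts. With 1 library left out, the log2 fold change of Cxcr3 was 0.66 to 1.22. Cxcr5 had 8.76 and 9.26 against 13.2 and 12.6 (log2 fold change 0.54, interval 0.01 to 1.07, adjusted p = 0.16). The 3 intervals, which are not adjusted for the number of genes tested, leave out 0, but no adjusted p was under the threshold. For Cxcr3 and Cxcr5 the low counts leave wide intervals.

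Ccr4, a receptor of type 2 lymphocytes, was the single receptor whose groups overlapped. It had 67.7 and 74.4 in WT and 78.2 and 72 in pools labelled ICAM-1 KO, and the log2 fold change was 0.11 (adjusted p = 0.572). The interval of -0.15 to 0.36 leaves out a change as large as that of Cxcr6.

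**Figure D3:**
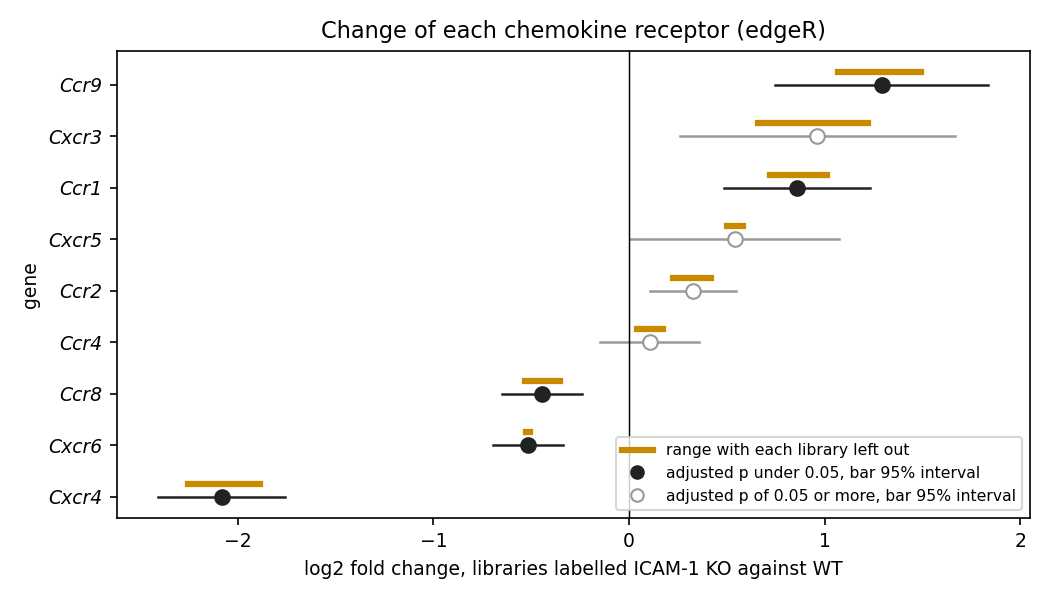
The log2 fold change of each chemokine receptor (pools labelled ICAM-1 KO over WT), with the 95% interval of the edgeR fit as a thin bar, filled points for an adjusted p under 0.05, and a thick bar above for the range with each of the 4 libraries left out in turn. Cxcr4 stands at -2.08 with a range of -2.25 to -1.89, and no thick bar crosses 0.

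Of 18 chemokine genes that encode ligands of the 9 receptors, 13 were tested. Of these, 4 were called higher in pools labelled ICAM-1 KO and 9 were not called (8.8% of all genes tested were called higher and 4.97% lower), with a median log2 fold change of 0.5 over the 13 against 0.01 for all genes tested. At an unadjusted p under 0.05, Ccl1 was lower and Ccl7 higher as well (adjusted p of 0.0776 and 0.138). Cxcl12, the ligand of Cxcr4, rose from 71 and 30 counts in WT to 149 and 187 (log2 fold change 1.8, adjusted p = 0.0346), opposite to its receptor. Its log2 fold change was 2.58 without WT replicate 1 and 1.28 without WT replicate 2, and its adjusted p was 0.152 without WT replicate 2 and 0.0717 without ICAM-1 KO replicate 2. Ccl22, a ligand of Ccr4, rose from 149 and 139 to 425 and 539 counts (1.81, adjusted p = 0.00418), whereas the other ligand of Ccr4, Ccl17, had 225 and 554 against 216 and 466.

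Ccl6 and Ccl9, both ligands of Ccr1, rose together with it. Ccl6 went from normalized counts of 78.8 and 95.5 to 139 and 168, and Ccl9 from 30 and 29.7 to 51 and 50.2, with log2 fold changes of 0.84 and 0.79 (adjusted p of 0.00563 and 0.00705). The tested ligands of Cxcr6 and Ccr8, which fell alongside Cxcr4, were not called. Cxcl16, the ligand of Cxcr6, had normalized counts of 8.86 and 6.18 in WT and 10.2 and 12 in pools labelled ICAM-1 KO (adjusted p = 0.195). Ccl1, a ligand of Ccr8, had 22.7 and 17.4 against 10 and 13.5. The number of ligands called lower was 1 with DESeq2 and 1 without ICAM-1 KO replicate 2. Cxcl13, the ligand of Cxcr5, had no count in 3 libraries and 23 counts in ICAM-1 KO replicate 2, and Ccl8, Ccl12, Cxcl9 and Cxcl11 were also too rare to be tested.

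Of 14 other chemokine receptors and atypical receptors, 10 were tested, of which 3 were called higher (8.8% of all genes tested) and 7 were not called, with a median log2 fold change of 0.26 against 0.01 for all genes tested. Ccr6, which binds Ccl20, rose from normalized counts of 6.14 and 14.2 to 32.1 and 38 (log2 fold change 1.8, adjusted p = 0.00782). Ccr3, the eotaxin receptor of eosinophils, rose from 5.18 and 8.42 to 14.6 and 25.6 (1.6, adjusted p = 0.0192), and the scavenging receptor Ackr2 from 1.35 and 3.04 to 6.91 and 9.91 (1.97, adjusted p = 0.0193). Ccr7, which guides cells to lymph nodes, was the most abundant of the list, at 149 and 199 against 184 and 190 (adjusted p = 0.543). The log2 fold changes of Ccr6 and Ackr2 were 1.33 and 1.51 without WT replicate 1 and 2.55 and 2.69 without WT replicate 2. Without WT replicate 1, Ccr6 was the 1 gene of the list still called (Ackr2 0.0922, Ccr3 0.102), and without ICAM-1 KO replicate 2 Ccr3 had an adjusted p of 0.0556.

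Of 23 genes that carry the signal below these receptors, all tested, 3 were called higher and 1 lower, shares near those of all genes tested (8.8% and 4.97%), with a median log2 fold change of -0.0019. Gnai2, the main inhibitory G protein subunit of lymphocytes, had normalized counts of 733 and 728 in WT and of 692 and 743 in pools labelled ICAM-1 KO, with an interval of -0.19 to 0.19. Rgs1, which shortens G protein signals after chemokine contact, fell from 1554 and 1448 to 1099 and 1210 (log2 fold change -0.35, adjusted p = 0.0358). Rgs3, of the same family, rose from 23.3 and 21.7 to 32.7 and 33.6 (0.59, adjusted p = 0.0388). Dock2, an activator of Rac in migrating lymphocytes, rose from 292 and 293 to 398 and 363 (0.41, adjusted p = 0.0163). Cd74, which can pair with Cxcr4 as a receptor for the cytokine MIF and serves as the invariant chain of MHC class II, rose from 583 and 554 to 937 and 1081 (0.85, adjusted p = 0.00143). Rgs1, Rgs3 and Dock2 each missed the threshold with either WT library or ICAM-1 KO replicate 1 left out (adjusted p of 0.065 to 0.183), and Rgs3 also without ICAM-1 KO replicate 2 (0.134).

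**Figure D4:**
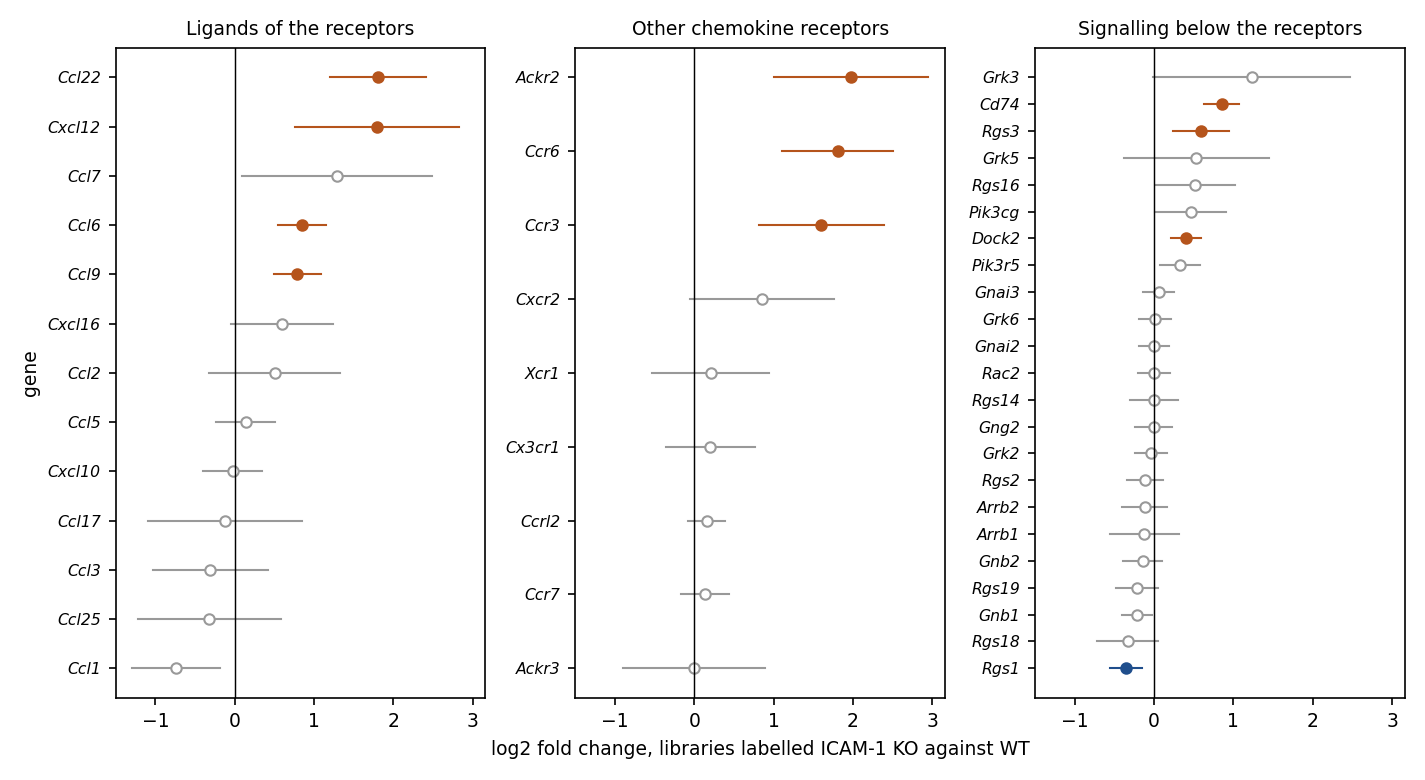
The log2 fold changes of tested ligands (13), other receptors (9 of the 10) and signalling genes (23) (pools labelled ICAM-1 KO over WT), with 95% intervals from edgeR; filled orange points are called higher, the filled blue point is called lower and open points are not called. The called genes of all 3 panels lie to the right of 0 except Rgs1.

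Among the 5 genes whose centred log2 values over the 4 libraries lay nearest to those of Cxcr4 were Gm10073, Tle3, Enah and Ifi206, at Euclidean distances of 0.209 to 0.499. Tle3 encodes a transcriptional corepressor, and its normalized counts were 63.1 and 66.7 in WT and 14.6 and 15.6 in pools labelled ICAM-1 KO. Enah, a regulator of actin filaments, had 5.35 and 5.38 against 0.833 and 1.12. With 4 libraries this likeness is a description of a fall of similar size and implies no shared control.

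Markers of several other cell types were higher in pools labelled ICAM-1 KO. The numbers called stand against 8.8% of all genes tested that were called higher. Summed normalized counts are over all markers of a list, tested or not. Of 10 macrophage and monocyte markers, 7 of the 9 tested were called higher, with a summed normalized count of 266 and 283 in WT against 565 and 837 in pools labelled ICAM-1 KO. Of 7 B cell markers, 5 were called higher (175 and 159 against 335 and 273), and so were 5 of 9 T cell markers (657 and 721 against 948 and 1125) and 4 of 6 regulatory T cell markers (695 and 964 against 1115 and 1280). All 8 endothelial markers were called higher (119 and 127 against 299 and 320), as were 4 of the 5 neutrophil markers tested (66.5 and 72.4 against 169 and 128). The 4 of 7 dendritic cell markers that were tested were also called higher (811 and 751 against 1288 and 1500). Most of that sum came from Cd74 (583 and 554 against 937 and 1081) and H2-Ab1 (206 and 172 against 304 and 367). Flt3, Clec9a and Siglech of the same list were too rare to be tested. Of the 4 NK cell and ILC1 markers tested 1 was called higher (18.1 and 30.9 against 41 and 31.3), and of the 6 epithelial markers tested 2 were (385 and 165 against 411 and 1102). Klra8 of NK cells and Sftpb of epithelium had no count in WT replicate 2, and Ly6g of neutrophils had none in WT replicate 1, while no marker was at 0 in all 4 libraries. The most abundant markers of both T cell lists, Trbc2, Ctla4 and Tnfrsf18, were not called. The 5 T cell markers called higher were Cd3d, Cd4, Cd5, Trac and Trbc1. The 4 regulatory T cell markers called higher were Foxp3, Ikzf2, Lrrc32 and Tnfrsf4. Foxp3 had normalized counts of 42.4 and 53.9 in WT against 157 and 181 in pools labelled ICAM-1 KO. Its log2 fold change was 1.84 (adjusted p = 0.000224 by edgeR). The proportion of these other cell types was not measured, nor was the cell source of the marker RNA. The part of these cell types in the rises of Ccr1, Ccr9, Ccr6 and Cxcl12 was not tested.

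Which cells held the RNA of the receptors that fell was not tested. The ILC2 markers moved in both directions. Of 13, 2 were called higher (Klrg1 and Ptprc) and 3 lower (Il2ra, Il5 and Il13), against 8.8% and 4.97% of all genes tested, with a median log2 fold change of -0.06 and a summed normalized count of 6126 and 6766 in WT against 5882 and 6076. Ptprc encodes CD45, an antigen of the sort gate that is not particular to ILC2s. It added 706 and 701 to that sum in WT against 920 and 896 in pools labelled ICAM-1 KO. Gata3 and Il1rl1 were not called, at log2 fold changes of -0.14 and 0.21. Of 8 eosinophil, basophil and mast cell markers, 7 were tested, with 1 called higher (Il5ra) and 2 lower, against 8.8% and 4.97% of all genes tested. The 2 lower ones were Epx (1027 and 739 counts in WT, 0 in both pools labelled ICAM-1 KO) and Prg2 (1583 and 1041 against 33 and 118). The other 4 were not called, at log2 fold changes of -0.1 (Mcpt8), 0.3 (Fcer1a), 0.4 (Cpa3) and 0.49 (Ms4a2). The summed normalized count of the list was 527 and 450 against 454 and 603. The part of eosinophils, basophils and mast cells in the fall of Cxcr4 was not tested.

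**Figure D5:**
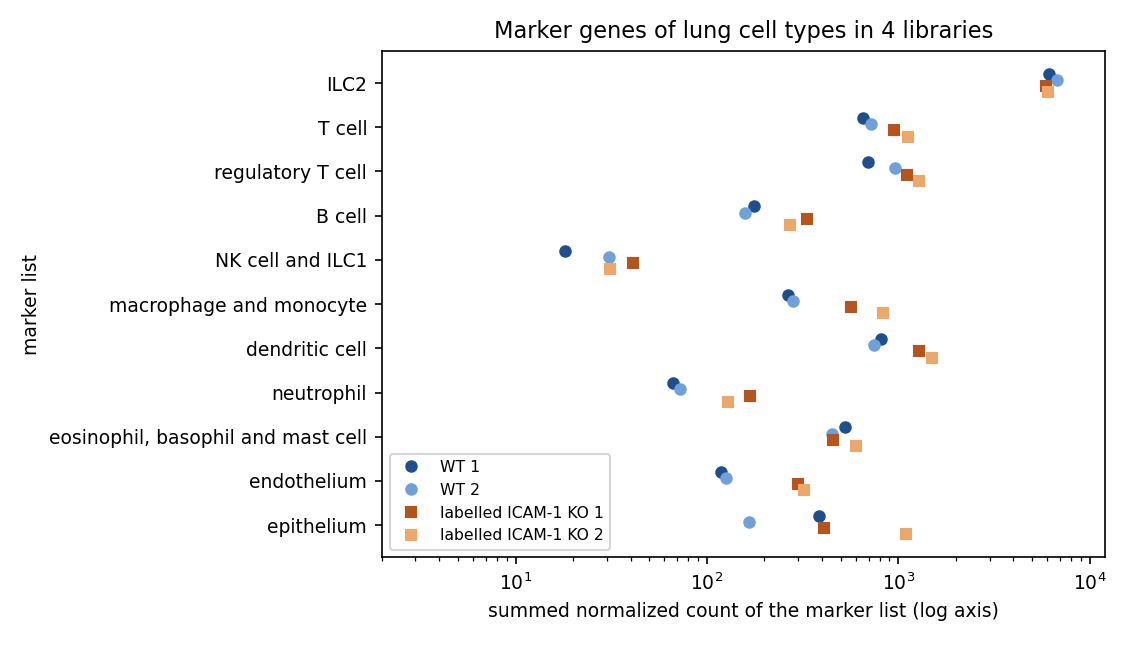
Summed normalized count (log axis) of 11 lists of marker genes in the 4 libraries, with circles for WT and squares for pools labelled ICAM-1 KO. The ILC2 list is the highest, and both its squares (5882 and 6076) lie to the left of its circles (6126 and 6766). Both squares of the macrophage, B cell, endothelial, dendritic, neutrophil and both T cell lists lie to the right of the circles. So do those of the epithelial list and, narrowly, of the NK cell and ILC1 list (41 and 31.3 against 18.1 and 30.9).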

How the data were processed

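Sorted lung ILC2s were profiled by RNA sequencing. The authors made cDNA from 10 ng RNA (SMARTer kit), used STAR, the mm10 genome and GENCODE M20 annotation for alignment and quantified genes in Partek. The deposited estimated counts carry no normalization, and 53.3% were whole (within 1e-9). The authors also deposited a normalized signal, in which 1 was added to each count and the sum multiplied by a single upper quartile factor per library. Here the expected counts were rounded and fitted with edgeR 4.0.16 (glmQLFit with legacy set to FALSE, upper quartile factors, no covariate) in R 4.3.3, for genes whose normalized counts averaged 1 or more and summed to 10 or more, the limits in the paper. P-values were adjusted over all genes tested by Benjamini-Hochberg, and intervals are 95% intervals of the fit, without that adjustment. Whether counting used strand is not given in the sources used here. Exon lengths came from GENCODE M21, which matched the positions of all 9 receptors once the end of each gene was moved by 1 base, and promoters from RefSeq, with 8 of 9 receptors matched. Groups came from the sample titles. Alternatives were DESeq2 1.42.0, limma 3.58.1, TMM factors, the older quasi-likelihood form, no filter, at least 10 counts in every library, filterByExpr, a 2-fold limit, a replicate block and leaving out each library. All 9 receptors are named, with the called members of 3 lists (or the most abundant, up to 4), Icam1 and the 5 nearest patterns, of which 1 is not reported here; Gata3, Il1rl1, Trac, Ccl1, Ccl7, Ccl17, Cxcl16, Gnai2 and the markers named singly were added after their values were seen. The receptors and lists were chosen with earlier results of these data known. The fit was tested on simulated data.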

Additional observations from a re-analysis of the deposited data

How the results depend on the processing

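With 2 libraries per group, an SD rests on 2 values, and low counts limit Cxcr3, Cxcr5 and Ccr9 most. Cxcr4 and Cxcr6 were called under all 8 alternative tests, filters and normalizations and with each library left out, at adjusted p of at most 0.0105 and 0.0339, and no receptor changed direction in any of these. The 2 receptors called higher became 4 with DESeq2, 0 without a filter on low counts (22158 genes tested) and 1 with a change of at least 2-fold, and between 0 (without WT replicate 1) and 4 (without ICAM-1 KO replicate 2) with 1 library left out. The 3 called lower became 1 with a change of at least 2-fold. With 1 library left out, the log2 fold change of Ccr8 was -0.53 to -0.35. It was smallest without WT replicate 1, where its call, as given above, did not hold. Over all genes tested, DESeq2 called 1261 higher and 930 lower, and without a filter 334 were higher and 201 lower, against 1030 and 582. With 1 library left out these were 479 to 948 higher and 158 to 388 lower, where the lone library is assumed to vary like the other pair. Ccr7, not called in any, had log2 fold changes of -0.063 (without WT replicate 1) to 0.36 with 1 library left out. The labels do not say whether equally numbered libraries shared a batch. Deviations of equally numbered libraries correlated at -0.0293, which cannot settle this with 2 libraries per group. With a replicate block, 1077 genes were higher and 638 lower, and 3 receptors were higher and 3 lower, Ccr2 being the one added (adjusted p = 0.0308). Without a filter, Cxcl12 (0.103), Ackr2 (0.079), Ccr3 (0.0909), Ccr6 (0.0561), Dock2 (0.0703), Rgs1 (0.053) and Rgs3 (0.105) also missed the threshold, as did Cxcl12 with the older quasi-likelihood form (0.0562) and, with filterByExpr, Cxcl12 (0.0553) and Rgs3 (0.0552). The cause of these changes was not tested.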
